A study of Homo sapiens with 8 samples.

Results

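Transcripts of 43 genes that signal, repair or bypass DNA damage were followed in a human leukaemia line that carried either an empty vector or an RRM2 construct. The set was defined by name: genes of ATR and ATM signalling, of homologous recombination and of the Fanconi anaemia pathway, each found by its Ensembl identifier (H2AX is listed under its older name H2AFX in some annotations). All 43 were among the 34618 genes of the count table, and all 43 passed the low count filter that left 15286 genes for testing. They were divided by role into 21 genes of checkpoint signalling and break sensing, 10 of recombination and 12 of the Fanconi pathway. The cells are labelled THP1, an acute monocytic leukaemia line. The 4 MOCK libraries came from cells engineered with an empty vector, and the 4 libraries called RRM2_OE here came from cells engineered with a construct named iRxI/AxA mutant, which the sample descriptions call RRM2 OE. RRM2 encodes the small subunit of the reductase that makes deoxynucleotides, and the comparison belongs to a study of deoxynucleotide supply and blocked differentiation in acute myeloid leukaemia. Both groups grew with doxycycline at 2 µg/mL, so the drug is common to them. The labels name neither a clone nor separate cultures, so the tests measure library-to-library spread alone, which may be technical.

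Ribonucleotide reductase supplies the deoxynucleotides that replication forks use. Where a fork stalls, single-stranded DNA is coated by the RPA trimer, which recruits the kinase ATR through ATRIP, while TOPBP1 and the 9-1-1 clamp (RAD9A, RAD1, HUS1, loaded by RAD17) switch ATR on. ATR then phosphorylates CHEK1, which restrains origin firing and entry into mitosis. Double-strand breaks are instead sensed by the MRN complex (MRE11, RAD50, NBN), which activates ATM, CHEK2 and the chromatin marks on H2AX that MDC1 and TP53BP1 read. Homologous recombination cuts back the broken end (RBBP8, EXO1), prepares the single strand for exchange with the help of BRCA1, BARD1, PALB2 and BRCA2, and searches for a template. The Fanconi pathway releases DNA interstrand crosslinks and protects stalled forks: its core complex, with the conjugating enzyme UBE2T, attaches ubiquitin to the FANCI and FANCD2 pair. Many of these proteins act through phosphorylation and ubiquitin, which RNA does not show.

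Library totals ran from 10994255 to 11686152 counts, and single counts of the 43 genes from 48 to 2777. RRM2 itself was at 116, 128, 123 and 127 CPM (counts scaled to a common library total with TMM factors) in MOCK replicates 1 to 4 and at 223, 236, 215 and 224 CPM in RRM2_OE replicates 1 to 4, with no overlap. Each of 11 myeloid markers reached 1 CPM in all 8 libraries, their sum being 4832 to 5059 CPM in MOCK and 4119 to 4188 CPM in RRM2_OE. The list went both ways: the granule genes MPO, ELANE and AZU1 fell, LYZ, CSF1R, CD14 and ITGAM rose, and 4 did not pass. Of 8 erythroid markers 7 reached 1 CPM in every library (sums of 714 to 778 CPM in MOCK and 555 to 642 CPM in RRM2_OE), and of 8 T and NK markers 4 did (193 to 206 CPM against 283 to 292 CPM), with CD3E, CD3G and CD2 below 1 CPM throughout. Of 5 epithelial markers 2 reached it (sums of 27.4 to 33.8 CPM in MOCK and 30.05 to 33.9 CPM in RRM2_OE), with EPCAM and CDH1 below 1 CPM and KRT19 at 0, and of 5 fibroblast markers 0 did (0.72 to 1.44 CPM against 1.04 to 1.48 CPM). The part of these markers in the results was not tested. CDKN2A, commonly described as deleted in THP1, was at 44.6 to 56.3 CPM in all 8 libraries, so the name of the line rests on the label. In a bulk sample, fewer cells of a kind and less RNA per cell cannot be told apart. Replicates 1 and 3 stood apart from replicates 2 and 4 in both groups: 11 of the 43 genes were higher in both even-numbered libraries of each group and 2 (H2AX and RAD54L) in both odd-numbered ones. The share of all genes that did so was not counted, so these numbers cannot be read as particular to the 43.

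The 3 arms differed in how many genes changed between the groups. Recombination genes were higher in RRM2_OE in 6 of 10 cases and lower in 0. Fanconi genes were higher in 4 of 12 cases and lower in 0. Checkpoint genes were higher in 0 of 21 cases and lower in 1, the kinase ATM. In all, 10 of the 43 genes rose and 1 fell at an adjusted p below 0.05 (edgeR's quasi-likelihood test, Benjamini-Hochberg over 15286 genes). The background in the same fit was 7.41% of all genes higher and 5.42% lower (12.8% in either direction), against 23.26% and 2.33% of the 43. The calls on all genes, 1133 higher and 829 lower, became 1047 higher and 465 lower on log2(RPKM + 1), a split in which the members gave 8 higher and 0 lower. For the zero counts, unadjusted p-values below 0.05 numbered 3 for higher checkpoint genes, 0 for lower recombination genes and 1 for lower Fanconi genes, and DESeq2 called 0 in each of these. The division into arms is a choice. With MRE11 (log2 fold change 0.12), RAD50 (-0.10) and NBN (-0.17) counted as recombination genes, that arm still had 6 higher and 0 lower. It would then hold genes with a negative log2 fold change. With BRCA1, BRCA2, PALB2, RAD51C and XRCC2 counted as Fanconi genes, 4 recombination and 6 Fanconi genes were higher. Whether the arms differ from one another was not tested, since the genes had been grouped with earlier results known.

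**Figure D1:**
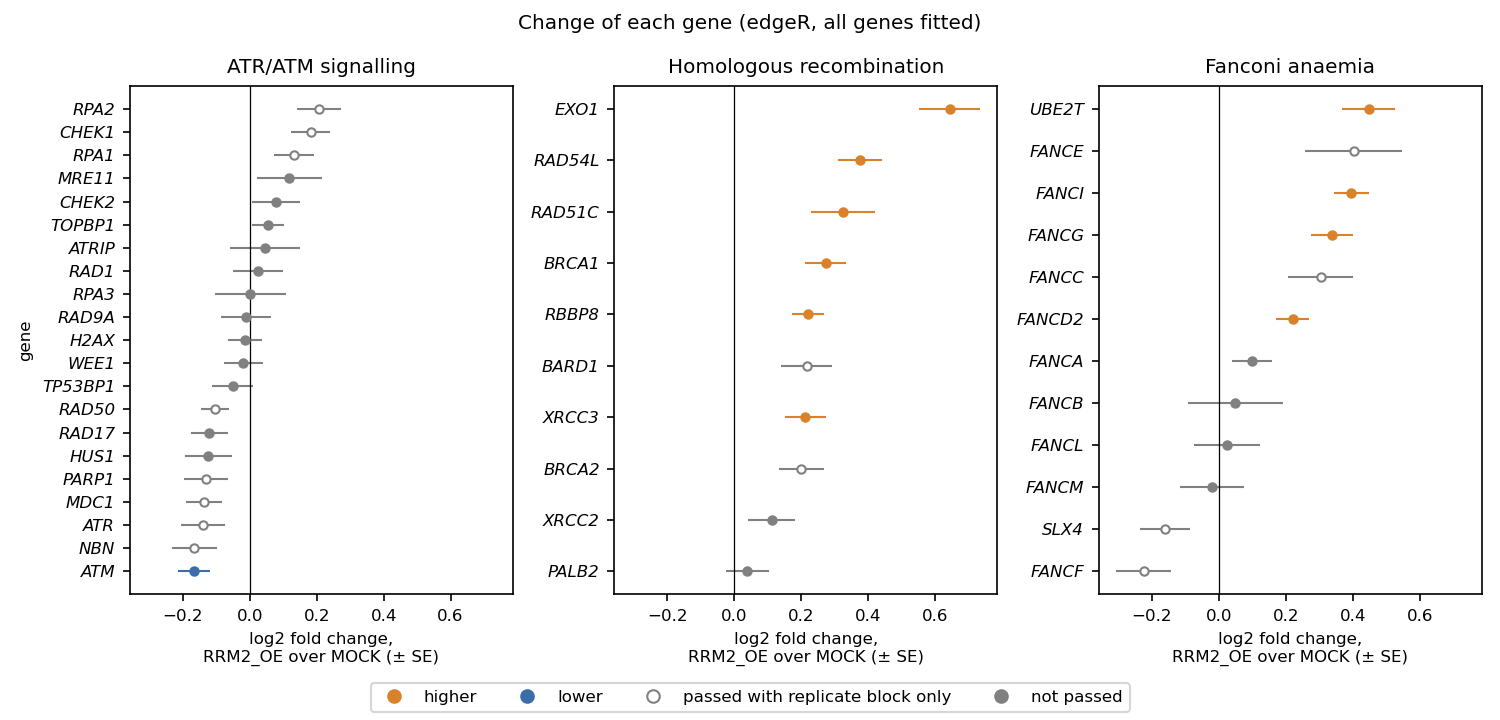
Log2 fold change of each of the 43 genes, RRM2_OE over MOCK, with its standard error, by arm. Filled orange points rose and the blue point fell at an adjusted p below 0.05, open points passed only with replicate number as a block, and filled grey points did not pass. Checkpoint genes, which here include MRE11, RAD50 and NBN, spread on both sides of 0 between -0.17 and 0.21. All 10 recombination genes lie to the right of 0.

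The median log2 fold change was 0.22 for recombination, 0.16 for the Fanconi genes and -0.01 for the checkpoint genes, beside -0.00 over all genes tested. Of the 43 genes, 13 had all 4 RRM2_OE libraries above all 4 MOCK libraries and 4 had them all below, where 10.5% and 8.89% of all genes did (19.4% in either direction). The 13 were 7 recombination genes, 5 Fanconi genes and 1 checkpoint gene (CHEK1), and the 4 were ATM, HUS1, MDC1 and RAD50, all of the checkpoint arm. Averaged over an arm, the log2 ratio of CPM to the MOCK mean was 0.23 to 0.32 in the 4 RRM2_OE libraries for recombination and 0.14 to 0.18 for the Fanconi genes. The same average was -0.07 to 0.03 in RRM2_OE for the checkpoint arm, where MOCK spanned -0.05 to 0.04. Thus the groups stood apart in 2 arms and overlapped in the third.

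**Figure D2:**
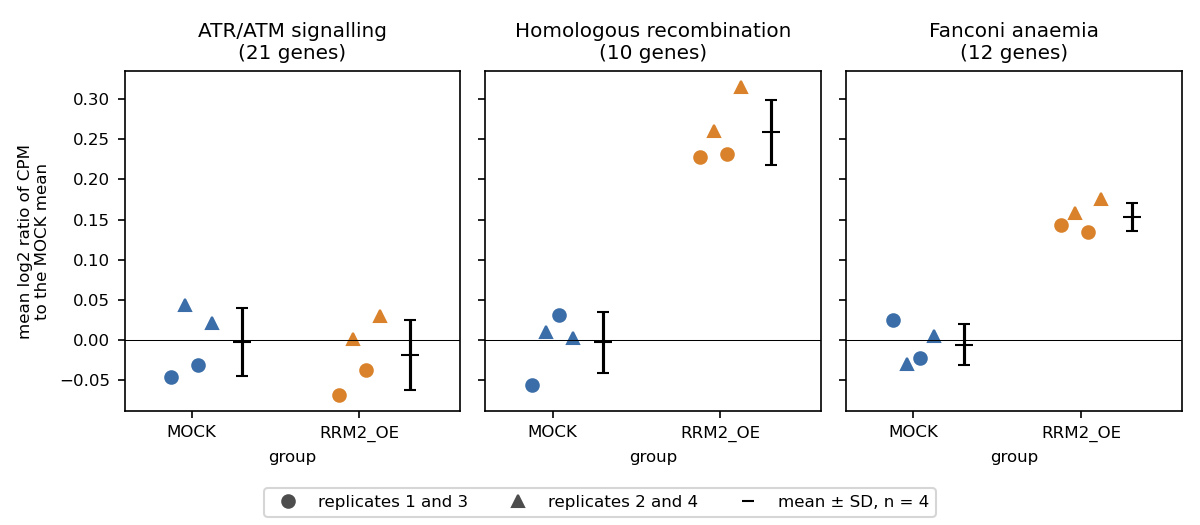
Mean over the genes of an arm of the log2 ratio of CPM to the MOCK mean, 1 point per library (circles, replicates 1 and 3, and triangles, replicates 2 and 4), with mean ± SD of 4 libraries. In recombination (0.23 to 0.32) and Fanconi genes (0.14 to 0.18) every RRM2_OE library lies above every MOCK library, and in checkpoint genes the groups overlap.

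Levels per length differed widely within each arm. In RPKM (reads scaled by exon length and library total), the histone variant H2AX was the highest of the 43 in MOCK, at 56.8 ± 2.82 RPKM (mean ± SD, n = 4), followed by RPA2 at 34.2 ± 2.59 and the break-sensing polymerase PARP1 at 32.2 ± 2.82, a pair whose libraries overlapped. The apical kinases were far lower, ATM at 6.24 ± 0.325 RPKM and ATR at 3.60 ± 0.243 RPKM. Within the recombination arm RBBP8 led at 12.4 ± 0.66 RPKM and BRCA2 came last at 3.15 ± 0.230 RPKM. In the Fanconi arm the order did not follow the subunits' roles. UBE2T was at 17.6 ± 1.21, the ubiquitin ligase FANCL at 16.7 ± 2.69 and FANCI at 14.7 ± 1.03 RPKM. FANCD2 (6.68 ± 0.227) was level with the core subunit FANCA (6.68 ± 0.255), with overlapping libraries, whereas FANCB (1.70 ± 0.24) and FANCC (1.62 ± 0.17) were the 2 lowest of all 43 genes. H2AX has a replication-type message without a poly(A) tail beside its polyadenylated one, and a poly(A)-selected library counts mainly the latter.

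**Figure D3:**
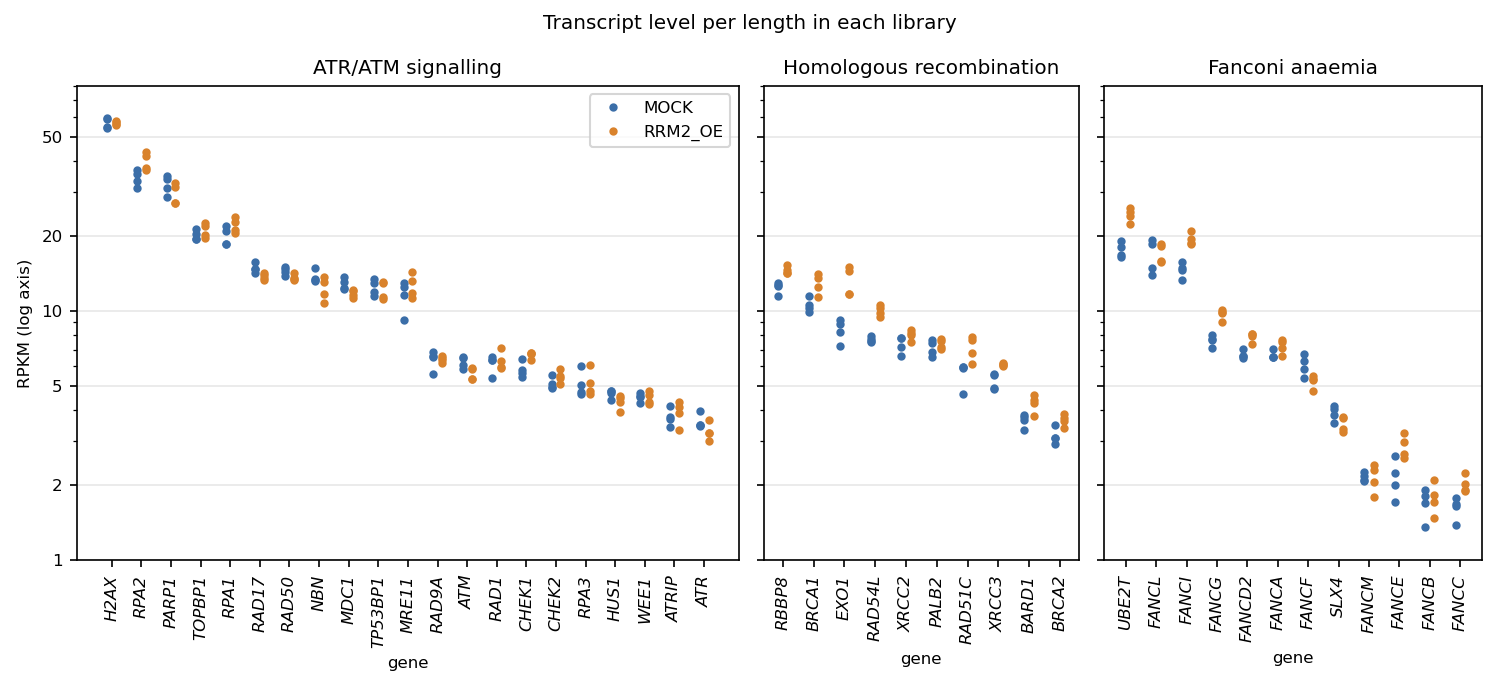
RPKM of each gene in each library on a log axis, ordered within an arm by the MOCK mean (blue, MOCK, and orange, RRM2_OE, 4 libraries each). Levels run from 56.8 RPKM for H2AX to 1.62 RPKM for FANCC in MOCK.

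EXO1, the exonuclease that lengthens the cut made at a broken end, changed most. Its level in MOCK replicates 1 to 4 was 30.8, 38.6, 34.1 and 36.2 CPM, and in RRM2_OE replicates 1 to 4 it was 49.0, 58.9, 49.0 and 61.3 CPM. The lowest RRM2_OE library lay well above the highest MOCK library, and in both groups the even-numbered libraries were the higher ones. This was a 1.56-fold rise (log2 fold change 0.64, SE 0.09, edgeR adjusted p = 6.38e-04), with 0.59 in replicates 1 and 3 alone and 0.69 in replicates 2 and 4 alone. EXO1 (ENSG00000174371) lies on chromosome 1 at 242011269 to 242058450 of hg19, plus strand, and overlaps no other gene in the position check.

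End resection also needs RBBP8 (CtIP), which starts the cut together with the MRN nuclease. RBBP8 was at 59.95, 64.9, 64.6 and 65.0 CPM in MOCK and at 73.0, 73.5, 72.8 and 77.1 CPM in RRM2_OE. The groups were apart, although by a small step (log2 fold change 0.22, SE 0.05, edgeR adjusted p = 0.011). On chromosome 18 (20378224 to 20606451 of hg19) it overlaps 3 unnamed genes of the opposite strand, and whether the counting used strand is not given in the sources used here. Its nuclease partner MRE11 gave a log2 fold change of 0.12 (SE 0.10, edgeR adjusted p = 0.494), and the difference between the 2 genes was not tested. The span of MRE11 overlaps an unnamed gene on the same strand.

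RAD54L, a motor protein that acts on DNA during strand exchange, was the steadiest of the recombination genes in MOCK. It was at 25.0, 24.3, 25.5 and 24.4 CPM there and at 34.3, 29.96, 33.4 and 31.2 CPM in RRM2_OE. Every RRM2_OE library was higher, a 1.30-fold rise (log2 fold change 0.38, SE 0.07, edgeR adjusted p = 0.00246). RAD54L (chromosome 1, 46713360 to 46744145 of hg19) overlaps LRRC41 on the opposite strand.

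BRCA1, the ubiquitin ligase that directs breaks into recombination, rose while its partners did not pass the test. BRCA1 was at 84.5, 88.5, 85.3 and 93.7 CPM in MOCK and at 95.3, 114, 105 and 111 CPM in RRM2_OE (log2 fold change 0.27, SE 0.06, edgeR adjusted p = 0.0113). The groups were apart, narrowly, between MOCK replicate 4 and RRM2_OE replicate 1. Its binding partner BARD1 had a like log2 difference, 0.22 (SE 0.08), with groups that did not overlap, but an adjusted p of 0.0867 by edgeR. BRCA2, which works on the resected single strand, was at 34.1, 35.2, 39.2 and 34.3 CPM in MOCK and at 42.2, 37.8, 43.9 and 40.2 CPM in RRM2_OE. MOCK replicate 3 reached into the RRM2_OE range, and the log2 fold change of 0.20 (SE 0.07) had an edgeR adjusted p of 0.0745. PALB2, the bridge between BRCA1 and BRCA2, gave 0.04 (SE 0.06, adjusted p = 0.768 by edgeR). With replicate number as a block, BRCA2 (adjusted p = 0.00517) and BARD1 (adjusted p = 0.0119) passed as well, both higher.

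RAD51C and XRCC3 form one complex that assists strand exchange, and both rose. RAD51C was at 16.0, 20.2, 19.98 and 19.6 CPM in MOCK and at 20.7, 25.3, 22.8 and 25.9 CPM in RRM2_OE (log2 fold change 0.32, SE 0.10, edgeR adjusted p = 0.0431). XRCC3 was at 37.9, 42.6, 42.0 and 36.9 CPM in MOCK and at 47.1, 45.2, 46.0 and 46.3 CPM in RRM2_OE (0.21, SE 0.06, edgeR adjusted p = 0.0393). Both were separated between the groups but close to the threshold. The RAD51C call was lost on leaving out any single library other than RRM2_OE replicate 1 (edgeR adjusted p up to 0.115), and the XRCC3 call on leaving out any other than MOCK replicate 2 or MOCK replicate 3 (up to 0.106). DESeq2 did not call XRCC3 (adjusted p = 0.0525), nor was it called with no low count filter. Neither gene was called on log2 RPKM, and RAD51C was not called on library sizes without TMM factors. XRCC2, which sits with RAD51C in another complex, had overlapping groups (0.11, SE 0.07, edgeR adjusted p = 0.343) and went from -0.02 in replicates 1 and 3 to 0.25 in replicates 2 and 4. XRCC3 overlaps KLC1 and 2 unnamed genes on the opposite strand.

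In the Fanconi pathway the substrates of the ubiquitin step and its conjugating enzyme rose. The ubiquitin ligase of that step, FANCL, did not pass (log2 fold change 0.02, SE 0.10, edgeR adjusted p = 0.914). FANCI was at 106, 115, 116 and 121 CPM in MOCK and at 148, 161, 146 and 149 CPM in RRM2_OE. Every RRM2_OE library lay far above the highest MOCK library, and the log2 fold change of 0.40 (SE 0.05) had an edgeR adjusted p of 3.44e-04, the smallest of the 43. Its value was 0.40 in each parity of replicates taken alone. FANCI (chromosome 15, 89787180 to 89860492 of hg19) overlaps POLG on the opposite strand. FANCD2, the partner of FANCI, rose less, from 57.1, 55.6, 54.6 and 57.96 CPM in MOCK to 67.2, 66.5, 62.3 and 66.7 CPM in RRM2_OE (0.22, SE 0.05, edgeR adjusted p = 0.0114). UBE2T, the conjugating enzyme, was at 20.95, 19.5, 17.6 and 17.6 CPM in MOCK and at 24.1, 25.3, 26.7 and 27.1 CPM in RRM2_OE. The rise in UBE2T was 1.36-fold (0.45, SE 0.08, edgeR adjusted p = 0.00259), with every RRM2_OE library above MOCK.

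The core complex was higher on average, but its subunits did not all change alike. Over its 8 subunits the mean log2 ratio of CPM to the MOCK mean was 0.09 to 0.13 in RRM2_OE and -0.03 to 0.01 in MOCK. Summed CPM of the groups was also apart, whereas summed RPKM overlapped. FANCG, a scaffold subunit, rose from 26.3, 27.95, 28.0 and 28.4 CPM in MOCK to 35.8, 32.1, 36.2 and 35.8 CPM in RRM2_OE (log2 fold change 0.34, SE 0.06, edgeR adjusted p = 0.00431). The other 7 core subunits did not pass. FANCC (0.30, SE 0.10) and FANCE (0.40, SE 0.15), which sit together in one subcomplex, had edgeR adjusted p-values of 0.0563 and 0.0919 at low levels, FANCE at 5.51 ± 1.08 CPM in MOCK and 7.29 ± 0.77 CPM in RRM2_OE (mean ± SD, n = 4). FANCF, the adaptor of the same subcomplex, had the opposite sign at -0.22 (SE 0.08, edgeR adjusted p = 0.0966). FANCA (0.10), FANCB (0.05), FANCL (0.02) and FANCM (-0.02) had overlapping groups. SLX4, the scaffold of the nucleases that unhook a crosslink, gave -0.16 (SE 0.07, edgeR adjusted p = 0.191). With the replicate block, FANCC and FANCE passed as higher and FANCF and SLX4 as lower. The arm then had 6 of 12 genes higher and 2 lower, beside 15.1% higher and 14.0% lower over all genes in that fit. The share of the arm that was lower was thus close to that of all genes.

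**Figure D4:**
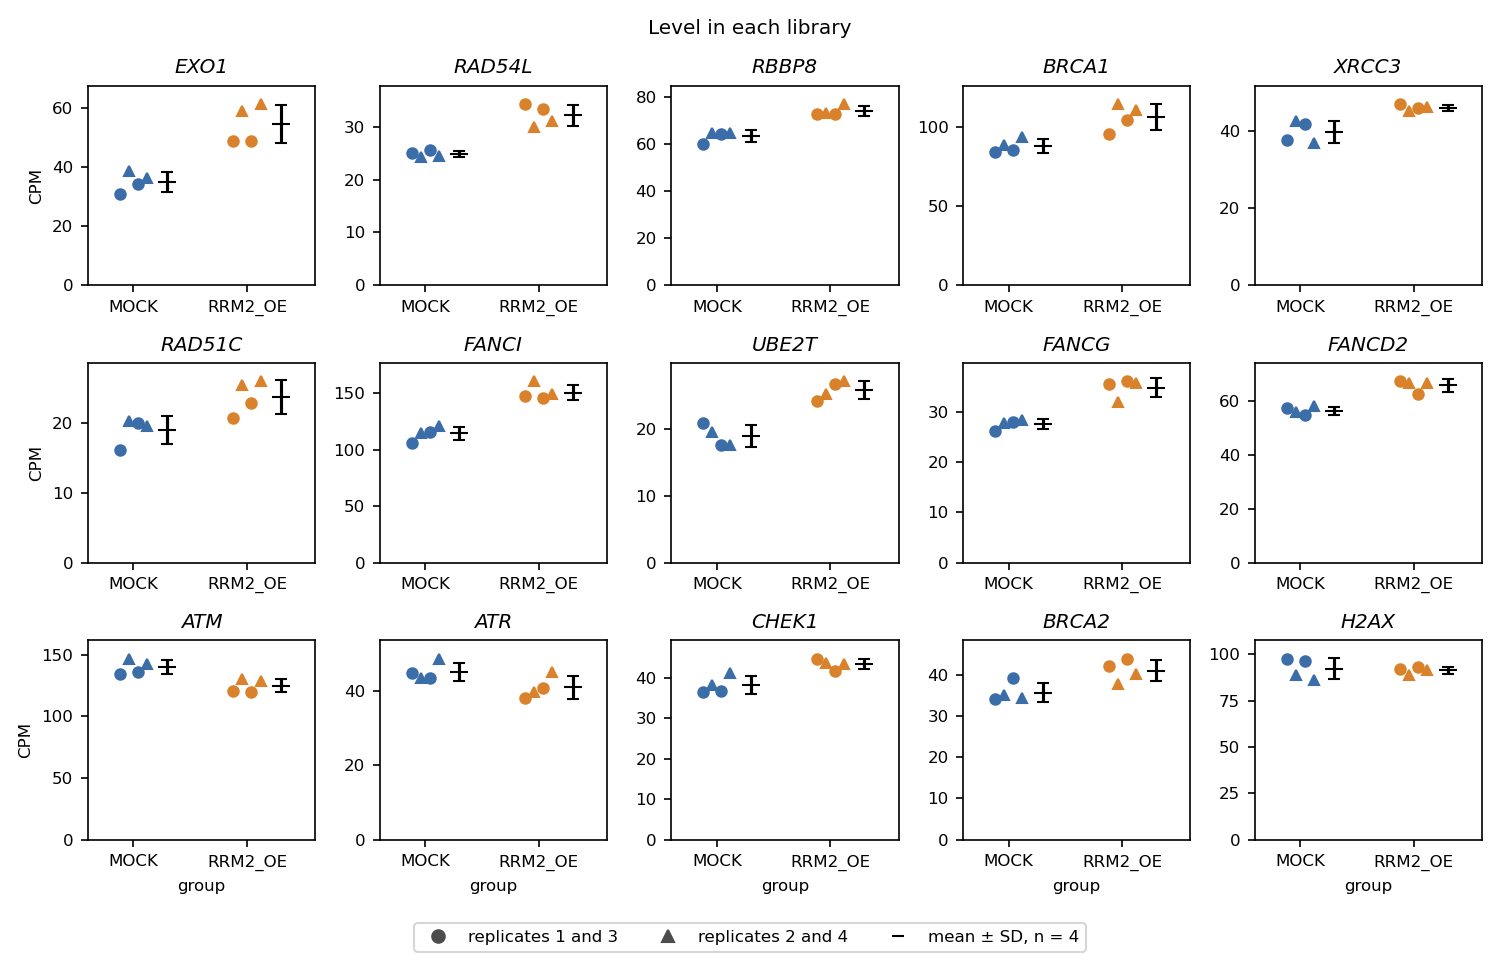
CPM in each library of the 11 genes that passed the test and of ATR, CHEK1, BRCA2 and H2AX, from 0 on every axis (circles, replicates 1 and 3, and triangles, replicates 2 and 4), with mean ± SD of 4 libraries. In the first 10 panels all RRM2_OE points lie above all MOCK points, for ATM they lie below, and for ATR, BRCA2 and H2AX the groups overlap.

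ATM, the kinase of the double-strand break response, was the 1 gene of the 43 called lower without the replicate block, and 1 of 8 with it. It was at 134, 147, 136 and 143 CPM in MOCK and at 121, 130.4, 119.8 and 129 CPM in RRM2_OE. The groups were apart, narrowly, between MOCK replicate 1 and RRM2_OE replicate 2 (log2 fold change -0.17, SE 0.05, edgeR adjusted p = 0.0407). The call was lost on leaving out any single library other than MOCK replicate 1 or RRM2_OE replicate 2 (edgeR adjusted p up to 0.116), and it was not made on library sizes without TMM factors or on log2 RPKM. ATM (chromosome 11, 108093211 to 108239829 of hg19) overlaps NPAT and C11orf65 on the opposite strand. The sister kinase ATR was at 44.99, 43.5, 43.4 and 48.8 CPM in MOCK and at 38.1, 39.9, 40.8 and 45.3 CPM in RRM2_OE. RRM2_OE replicate 4 lay inside the MOCK range, and the log2 fold change of -0.14 (SE 0.07) did not pass (edgeR adjusted p = 0.204), but did with the replicate block (adjusted p = 0.0367). The span of ATR overlaps an unnamed gene on the same strand.

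Downstream of ATR, the kinase CHEK1 had the opposite sign. CHEK1 was at 36.5, 38.4, 36.9 and 41.4 CPM in MOCK and at 44.8, 43.8, 41.9 and 43.4 CPM in RRM2_OE. The groups did not overlap, by a small margin, and the log2 fold change of 0.18 (SE 0.06) had an edgeR adjusted p of 0.0605, or 0.00895 with the replicate block. The span of CHEK1 overlaps STT3A on the same strand, so reads in the shared part are uncertain. CHEK2, the corresponding target of ATM, gave 0.08 (SE 0.07) and WEE1, which holds mitotic kinase inactive, -0.02 (SE 0.06), with edgeR adjusted p-values of 0.535 and 0.881. H2AX, whose phosphorylated form marks damaged chromatin, was at 97.7, 88.8, 96.4 and 86.4 CPM in MOCK and at 92.2, 88.8, 92.99 and 91.8 CPM in RRM2_OE. All RRM2_OE values lay inside the MOCK range (log2 fold change -0.01, SE 0.05, edgeR adjusted p = 0.901), which concerns its RNA and not its phosphorylation.

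Signs of the damage sensor subunits were mixed in the MRN complex. In the RPA trimer and the 9-1-1 clamp not every subunit had a clear sign. In the RPA trimer, RPA2 gave 0.21 (SE 0.07, edgeR adjusted p = 0.0557), RPA1 0.13 (SE 0.06) and RPA3 0.00 (SE 0.11). In the 9-1-1 clamp, RAD9A gave -0.01 (SE 0.07), RAD1 0.03 (SE 0.07) and HUS1 -0.12 (SE 0.07). The values of RPA3, RAD9A and RAD1 were smaller than their standard errors, so their signs are not read. The clamp loader RAD17 gave -0.12 (SE 0.05). In the MRN complex, NBN gave -0.17 (SE 0.07) and RAD50 -0.10 (SE 0.04) beside 0.12 (SE 0.10) for MRE11. The readers MDC1 (-0.14) and TP53BP1 (-0.05), PARP1 (-0.13), TOPBP1 (0.05) and ATRIP (0.05) completed the arm, and the 20 checkpoint genes that did not pass had edgeR adjusted p-values of 0.0557 to 0.996. ATRIP overlaps TREX1 and HUS1 overlaps PKD1L1 on the same strand, which leaves their counts uncertain.

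Replicate number as a block changed the calls of this arm, as it did those of all genes. With replicate number as a block, 3 checkpoint genes rose (RPA2, CHEK1 and RPA1) and 6 fell (ATM, ATR, MDC1, NBN, RAD50 and PARP1), at adjusted p-values of 1.60e-04 to 0.0367 by edgeR. These were 14.29% of the arm higher and 28.57% lower, beside 15.1% and 14.0% of all genes in that fit. The share of the arm that was higher was thus close to that of all genes. The log2 fold changes of the arm under the block stayed between -0.17 and 0.21. PARP1 shows the pattern: it was at 211, 246, 224 and 247 CPM in MOCK and at 197, 229.8, 197 and 223 CPM in RRM2_OE, so that each replicate number was lower in RRM2_OE while the groups overlapped. Over the 43 genes the block gave 17 higher and 8 lower, against a background of 15.1% higher and 14.0% lower over all genes (29.1% in either direction). Each of the 11 genes called without the block was called in the same direction with it.

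Other genes of the 3 pathways were divided differently among the arms. Of 65 tested, 14 (21.54%) rose and 0 fell, beside 7.41% and 5.42% of all genes (edgeR, with 4 lower at an unadjusted p below 0.05 and 0 lower by DESeq2), with a median log2 fold change of 0.06. They were 8 of 25 recombination genes, 5 of 28 checkpoint genes and 1 of 12 Fanconi genes, the helicase BRIP1 (0.21), which DESeq2 did not call. Large rises among them were DMC1, a meiosis gene present at 3.11 ± 0.28 CPM in MOCK and 5.38 ± 1.18 CPM in RRM2_OE (mean ± SD, n = 4), at 0.79, and PPM1D, a phosphatase that reverses ATM and ATR signalling, at 0.44. PPM1D was at 29.8, 36.4, 30.3 and 32.1 CPM in MOCK and at 40.3, 44.9, 41.9 and 46.98 CPM in RRM2_OE, so that the groups were apart (SE 0.08, edgeR adjusted p = 0.00256). With the replicate block 22 of the 65 (33.85%) rose and 5 (7.69%) fell, beside 15.1% and 14.0% of all genes. Of the 67 genes listed, SLX1A and SLX1B, near-identical copies, were too low to test.

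S phase and mitotic genes were counted in the same fit. Of 19 S phase genes 9 rose, 0 fell and 10 did not pass, beside 7.41% of all genes higher and 5.42% lower (edgeR, with 0 lower at an unadjusted p below 0.05 and 0 lower by DESeq2), with a median of 0.21, close to that of the recombination arm. PCNA, the sliding clamp, went from 167 ± 14.7 to 250.8 ± 15.6 CPM (mean ± SD, n = 4), whereas none of the helicase subunits MCM2, MCM3, MCM4, MCM5, MCM6 and MCM7 passed (log2 fold changes of 0.02 to 0.14). Of 19 mitotic genes 3 rose, 8 fell and 8 did not pass, with a median of -0.13. AURKB, a kinase of chromosome segregation, gave 0.30, and the mitotic kinase PLK1 went from 76.4 ± 3.55 to 52.2 ± 3.58 CPM. Recombination and Fanconi genes are generally most expressed in S phase, and the part of the cell cycle in their values was not tested.

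Promoter sequence was examined for a property that the choice of genes did not use. Windows of 300 bases, from 250 before to 50 after each RefSeq start (GRCh38.p14), were found for 37 of the 43 genes, 49 windows in all. RPA2, RPA3, HUS1, WEE1, NBN and FANCI had none. An E2F-like motif, the element through which E2F factors regulate S phase genes, was searched as TTTCCCGC, TTTCGCGC, TTTGCCGC or TTTGGCGC on both strands, words that cannot coincide at one position. It occurred in 6 of the 49 windows (12.2%) and in 3.31% of 35116 windows of all genes, a comparison not matched for base composition. By arm it was in 3 of 12 Fanconi, 2 of 15 recombination and 1 of 22 checkpoint windows. The CHR element of cell cycle genes, searched as TTTGAA or TTCGAA on both strands, was in 6 of the 49 windows and in 16.4% of all windows. A match is a description of the letters and not a bound site.

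The 6 genes with an E2F-like word are shown because 2 of them, EXO1 and FANCD2, rose and the other 4 did not pass the test. Capitals mark the word, or its reverse complement where it lies on the other strand. EXO1 (chr1:241848124-241848223, plus strand) and FANCD2 (chr3:10026357-10026456, plus strand) are given from 80 bases before the start. The word begins at base 5 after the start in EXO1 and spans the start in FANCD2.
EXO1: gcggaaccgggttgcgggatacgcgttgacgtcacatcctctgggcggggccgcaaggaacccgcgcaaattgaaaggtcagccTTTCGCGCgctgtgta
FANCD2: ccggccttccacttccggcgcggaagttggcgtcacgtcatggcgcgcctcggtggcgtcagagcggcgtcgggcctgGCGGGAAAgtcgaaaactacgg

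The 4 genes that hold a word but did not pass are given over 30 bases, for comparison of the letters around it. They are TOPBP1 (chr3:133661930-133661959), XRCC2 (chr7:152676102-152676131), FANCA (chr16:89816801-89816830) and FANCC (chr9:95317737-95317766), all on the minus strand and written 5′ to 3′ along the gene. FANCC holds a further word upstream, not shown.
TOPBP1: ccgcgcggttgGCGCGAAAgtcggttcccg
XRCC2: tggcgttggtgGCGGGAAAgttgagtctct
FANCA: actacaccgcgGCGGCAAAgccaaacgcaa
FANCC: ttcgtcggaatTTTCCCGCgacgccgcggg
The word in XRCC2 and in FANCD2 is the same, and their log2 fold changes were 0.11 and 0.22. TOPBP1 carries the word of EXO1 on the other strand, with a log2 fold change of 0.05 beside 0.64 for EXO1. FANCC carries the word of FANCD2 and, in the part not shown, that of EXO1, each on the other strand. Its log2 fold change was 0.30 (edgeR adjusted p = 0.0563).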

How the data were processed

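The 8 libraries were made from polyadenylated RNA with strand kept, per the labels' protocols. The tools were TopHat2, bcl2fastq 2.18.0.12 and HTSeq 0.11.2 on build hg19 (GRCh37), per the submitters' processing notes, which give no roles. Whether HTSeq counted by strand, and on which annotation, is not given in the sources used here. Whole-number read counts per Ensembl gene and exon lengths make up the deposited tables, per the file headers. The authors' RPKM values equal those counts divided by exon length and library total. Symbols came from a table of current names by Ensembl identifier, and all 185 list entries were found.

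The count model was edgeR 4.0.16 under R 4.3.3 (TMM factors, filterByExpr, robust quasi-likelihood F tests, adjusted p below 0.05 by Benjamini-Hochberg over 15286 genes), with no covariate. CPM uses the TMM-scaled library sizes, and a standard error is the log2 fold change divided by the root of its F statistic. Alternatives were DESeq2 1.42.0, limma 3.58.1 (voom, and log2 RPKM with pseudocounts of 1 and 0.1), other factors and filters, covariates, an adjusted p of 0.01, subsets of libraries and other divisions into arms. The script was tested on simulated data, with the same spread for every gene and no odd/even difference. There 18.18% of genes changed 1.2-fold were called, and 78% of those changed 1.5-fold. A gene that did not pass may therefore have changed by 1.2-fold, or even by 1.5-fold.

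Same-numbered libraries of the 2 groups deviated together from the group means (r = 0.224 to 0.251 in all 4 pairs, above 0.1), although only 1 of 8 libraries correlated best with its own number: libraries of like parity did so at 0.224 to 0.294 and of unlike parity at -0.276 to -0.212. The check therefore separates odd from even numbers and cannot show pairing by number, since any pair of like parity passes it. Replicate number was a block in an alternative fit, beside another fit with an odd/even term. No 2 libraries of a group agreed within sampling noise. Chi-square per degree of freedom was 1.47 to 2.90 for pairs of like parity and 6.185 to 12.0 for pairs of unlike parity. The 4 libraries of a group were thus not equally separate.

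The genes, lists and rules were chosen with earlier results of these data known. Values in every library are given for each gene that passed and for ATM, ATR, CHEK1, BRCA1, BRCA2, FANCD2 and H2AX; among other pathway genes the 3 largest rises were chosen, of which 1 is not reported here. PARP1 and the marker and cell cycle examples were chosen after their values were seen.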

Additional observations from a re-analysis of the deposited data

Results flagged for a closer look

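Among 86 groups of 4 libraries (43 genes, 2 groups), 9 held a library whose gap to the nearest other exceeded the 95% limit of Dixon's test, where chance gives about 1 in 20. MOCK replicate 1 was low for RAD1 (37.3 CPM, the others 43.3 to 43.6), HUS1 (18.9 CPM, the others 19.7 to 19.9), RAD51C (16.0 CPM, the others 19.6 to 20.2) and RBBP8 (59.95 CPM, the others 64.6 to 65.0). MOCK replicate 3 was high for CHEK2 (23.0 CPM, the others 20.7 to 20.95) and low for BARD1 (20.2 CPM, the others 22.7 to 23.0). In RRM2_OE, replicate 4 was high for RBBP8 (77.1 CPM), replicate 3 low for FANCD2 (62.3 CPM) and replicate 2 low for FANCG (32.1 CPM).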

How the results depend on the processing

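Each of the 10 rises kept its direction under every alternative run, and 8 of the 11 calls (all but RAD51C, XRCC3 and ATM) were kept on leaving out any 1 library. H2AX changed sign on log2(RPKM + 1) (0.0003) and log2(RPKM + 0.1) (0.0004), in replicates 2 and 4 (0.0448), and without MOCK replicate 1 (0.0137) or MOCK replicate 3 (0.0067), within a range of -0.0457 to 0.0137 over single libraries left out. With the replicate block, all genes gave 2303 higher and 2143 lower, the 43 genes 17 and 8, the checkpoint arm 3 and 6, Fanconi genes lower 2, and other pathway genes 22 and 5, and the block changed no other count by over 1.5 times. With an odd/even term these were 2427 and 2277, 17 and 9, 3 and 7, 2, and 22 and 5, with 13 mitotic genes lower. At an adjusted p below 0.01, 530 and 281 genes remained of all, 5 and 0 of the 43, 0 lower checkpoint, 2 higher recombination, 3 higher other pathway and 0 higher mitotic genes. In replicates 1 and 3 alone, 1330 of all genes, 3 of the 43, 3 checkpoint and 4 other pathway genes were lower and 3 checkpoint genes higher. In replicates 2 and 4 alone, 3 of the 43, 3 checkpoint and 3 other pathway genes were lower and 1 checkpoint gene higher. On log2(RPKM + 1) and log2(RPKM + 0.1), 465 and 466 of all genes were lower, and 0 of the 43 and 0 checkpoint genes, as also on library size only (0 and 0). Without a low count filter 1 checkpoint gene was higher. The ratio of summed Fanconi levels, RRM2_OE over MOCK, was 1.15 on CPM and 1.18 on RPKM. Leaving out each library in turn gave 808 to 937 higher and 542 to 607 lower of all genes, 8 to 10 and 0 to 1 of the 43, 0 to 1 and 0 to 1 of the checkpoint arm, 4 to 6 higher recombination, 4 to 5 higher Fanconi and 8 to 14 higher other pathway genes, and 1 to 3 higher and 6 to 8 lower mitotic genes. The causes were not tested. Depth limits FANCB and FANCE most, at 48 to 94 counts a library.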
